A study of Mus musculus with 13 samples.

Results

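IMP1 (gene Igf2bp1) and IMP2 (gene Igf2bp2) are sister RNA-binding proteins, named after the message of insulin-like growth factor 2. Each holds RNA through RNA recognition motifs and KH domains, packs messages into cytoplasmic granules, and affects how long they last, where they lie and when they are translated. IMP1 is best known from embryonic tissues and from the localisation of beta-actin mRNA, and IMP2 stays on in many adult tissues, where it has been linked to metabolism and mitochondrial mRNAs. The 6 libraries described here set the RNA pulled down with IMP1 against the RNA pulled down with IMP2 in the same kind of cell, to ask which messages were held in a larger share by one protein than by the other.

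The cells were mouse embryonic fibroblasts, connective tissue cells grown out of E12.5 embryos per the labels, in medium with 10% serum. An antibody was used to pull each protein out of the cells along with its attached RNA, a method called RNA immunoprecipitation (IP). This gave 3 IMP1 IP libraries and 3 IMP2 IP libraries, out of 13 libraries in the series. A further 3 libraries made with IgG, a control antibody, give the background and entered no test in the main comparison, and the 4 total RNA libraries were not used here. The labels name no genotype, strain or antibody for the IP cells, although a protocol text common to all samples speaks of cells lacking IMP1 or IMP2. Nothing in them ties replicates to separate cultures, so p-values measure the spread between these libraries, which may be technical. RNA that stuck to the beads or was carried along with a bound message cannot be told apart from RNA held by the protein.

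Gene counts came to 17704900 to 18938144 per IMP1 IP library, 15718705 to 21756430 per IMP2 IP library and 11840189 to 14548720 per IgG IP library. Reads outside annotated genes made up 7.43% to 7.66% of the records in IMP1 IP, 4.7% to 5.22% in IMP2 IP and 24.2% to 25.2% in IgG IP. Reads with more than 1 place in the genome were 21.3% to 23.1% of an IMP1 IP library and 26.5% to 28.2% of an IMP2 IP library. The 10 most abundant genes of a library took 9.46% to 9.81% of an IMP1 IP library and 4.93% to 5.51% of an IMP2 IP library. Libraries of a group were close, with a median coefficient of variation of 3.56% in IMP1 IP and 5.27% in IMP2 IP over 8874 genes. IMP2 IP replicate 1 stood somewhat apart from the other two: counts differed by 7.7 and 8.07 times the sampling variance in its pairs, against 2.75 between replicates 2 and 3, and by 1.24 to 2.6 times between IMP1 IP libraries. The 11 fibroblast markers were present above 1 CPM in these libraries, and their sum was 37200 to 37900 CPM in IMP1 IP, 19800 to 22400 CPM in IMP2 IP and 24900 to 25400 CPM in IgG IP, with Fn1 the most abundant of them. Epithelial markers summed to at most 0.522 CPM in these IPs, the muscle genes Myf5 and Myog and the macrophage gene Adgre1 were at 0, and macrophage markers summed to 13.9 to 16 CPM in IMP1 IP and 26 to 28 CPM in IMP2 IP. Endothelial markers summed to 17.5 to 20.2 CPM in IMP1 IP and 9.48 to 10.6 CPM in IMP2 IP, neuronal markers to 51.7 to 58.7 CPM in IMP1 IP and 42.4 to 45.4 CPM in IMP2 IP, and chondrocyte markers to 84.4 to 86 CPM in IMP1 IP and 101 to 109 CPM in IMP2 IP. The part of these differences between the groups in the results below was not tested.

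The pull-downs differed across most of the transcriptome, by modest amounts for the majority of genes. Levels are in CPM, counts scaled to a common library total and between libraries by TMM, a method that takes most genes as a fixed reference. Fold changes are given as log2 of IMP1 IP over IMP2 IP, and a gene was called at an adjusted p under 0.05 in edgeR's quasi-likelihood test. Of 12771 genes tested, 9569 were called, a background of 74.9%. The 4620 genes that were higher in IMP1 IP made up 36.2% of those tested, and the 4949 that were lower made up 38.8%. Among called genes the median size of the difference was 0.64 on the log2 scale. A smaller set of 2078 genes (16.3%) was called and at least 2-fold apart, with 1149 (9%) higher and 929 (7.27%) lower. At 4-fold the counts were 97 higher and 16 lower, and the libraries of the groups did not overlap for 9840 genes (77%), with IMP1 IP above for 37.4% and below for 39.7% of the genes tested. With libraries this close, small differences passed the threshold, so levels and folds are given beside the calls.

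Relative scale matters in a pull-down, where the total RNA recovered was not measured. The abundant genes took a larger share of IMP1 IP than of IMP2 IP, and TMM factors were 0.88 to 0.8839 for IMP1 IP, and for IMP2 IP 1.127 to 1.141. Scaling by total counts alone moved the median of all genes down by 0.36 on the log2 scale, so that 26.4% of calls were higher in IMP1 IP, against 48.3% with TMM scaling. Changes below are relative to the TMM scale, on which the median of all genes was -0.03.

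**Figure D1:**
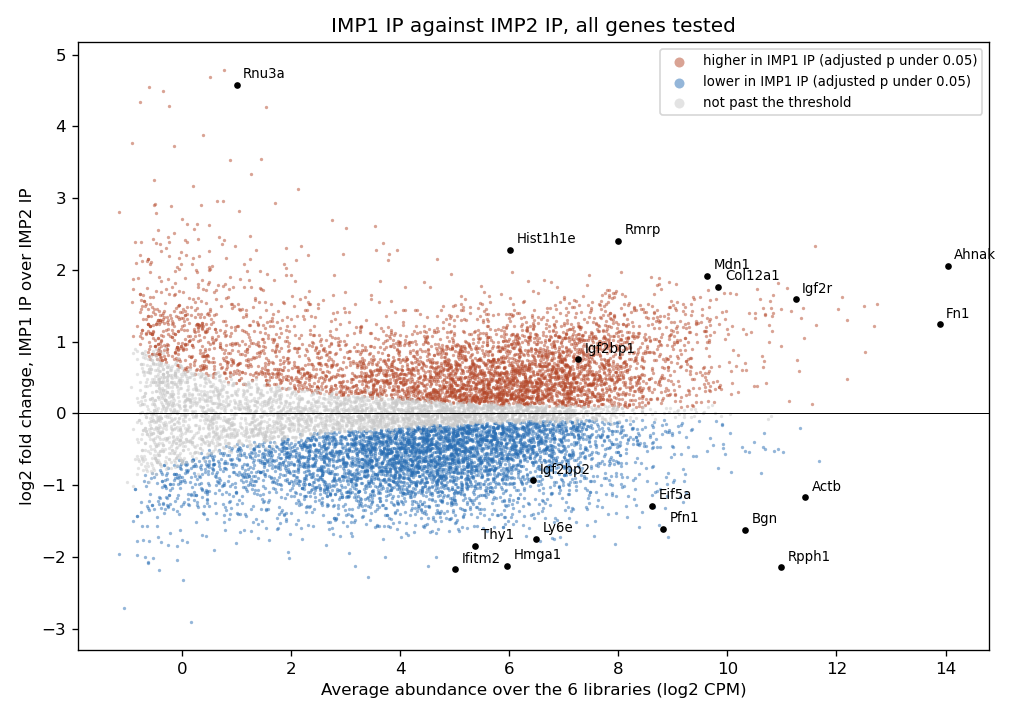
Average abundance over the 6 libraries (x axis, log2 CPM) against the log2 fold change of IMP1 IP over IMP2 IP (y axis) for the 12771 genes tested. Red points are higher and blue points lower in IMP1 IP at an adjusted p under 0.05, grey points are not past the threshold, and black points mark genes described in the text. At high abundance most points are red (75% of the 288 genes with an average log2 CPM of 9 or more were higher, and 17.4% were lower).

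The messages of the proteins themselves went with their own antibody. Igf2bp1 (ENSMUSG00000013415; GRCm38.p6 chromosome 11, 95957163 to 96005944) had 191, 198 and 194 CPM in IMP1 IP, against 111, 116 and 119 CPM in IMP2 IP, and 164 ± 1.28 CPM in IgG IP (mean ± SD of 3 libraries, as for IgG throughout). It was higher in IMP1 IP, with log2 fold change 0.75, SE 0.0414, adjusted p = 7.81e-11. Igf2bp2 (ENSMUSG00000033581; chromosome 16, 22059009 to 22163299) had 54.4, 57.4 and 65.4 CPM in IMP1 IP, against 107, 114 and 116 CPM in IMP2 IP, and 98.1 ± 1.65 CPM in IgG IP, and was lower in IMP1 IP, with log2 fold change -0.93, SE 0.0612, adjusted p = 7.27e-10. For both messages the libraries of the pull-downs did not overlap, and the IgG level lay between them. Igf2bp3, the mRNA of IMP3, had 13.8, 13.7 and 15.7 CPM in IMP1 IP, against 15.4, 16.9 and 16 CPM in IMP2 IP, with overlapping libraries and log2 fold change -0.17, SE 0.0861, adjusted p = 0.092. It became a call under 5 of the 15 other settings tried, so no direction is given for it.

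The 6 most abundant genes that were at least 2-fold higher in IMP1 IP encode scaffold, matrix and cytoskeletal proteins. Ahnak (ENSMUSG00000069833; chromosome 19, 8989284 to 9076935), which encodes a very large scaffold protein under the plasma membrane, was also the most abundant message in the IMP1 IP libraries. It had 28194, 27157 and 26338 CPM in IMP1 IP, against 6996, 6254 and 6456 CPM in IMP2 IP, and 21577 ± 255 CPM in IgG IP (log2 fold change 2.05, SE 0.047, adjusted p = 6.78e-15). The lowest IMP1 IP library was thus well above the highest IMP2 IP library, and the IgG libraries were closer to IMP1 IP. Fn1, the fibronectin message, had 20654, 21444 and 21936 CPM in IMP1 IP, against 8698, 8986 and 9425 CPM in IMP2 IP (log2 fold change 1.24, SE 0.0418, adjusted p = 1.91e-13). Plec, for the linker plectin, had 10562, 10123 and 9919.5 CPM in IMP1 IP, against 3973, 3221 and 3425 CPM in IMP2 IP (log2 fold change 1.53, SE 0.0603, adjusted p = 1.22e-12). Myh9, for the heavy chain of nonmuscle myosin IIA, had 9325, 9282 and 9218 CPM in IMP1 IP, against 4339.8, 3754 and 3849 CPM in IMP2 IP (log2 fold change 1.22, SE 0.0485, adjusted p = 1.32e-12). Flna, for the actin crosslinker filamin A, and Hspg2, for the basement membrane proteoglycan perlecan, complete the 6 most abundant genes that were at least 2-fold higher, at log2 fold changes of 1.49 and 1.3. In all 6 every IMP1 IP library was above every IMP2 IP library.

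A list of 31 giant scaffold and linker genes was higher in IMP1 IP. Like the lists below, it was chosen with earlier results of these data known, so its counts describe it and are no test. Over all genes tested, 36.2% were higher and 38.8% lower, the shares to set beside each list. Of the 30 list members tested, 30 were higher in IMP1 IP and 29 at least 2-fold. The median log2 fold change was 1.64, against -0.03 over all genes. Syne2, for the nesprin that ties the nucleus to the cytoskeleton, had 429, 432 and 416 CPM in IMP1 IP, against 114, 105 and 107 CPM in IMP2 IP (log2 fold change 1.97, SE 0.0421, adjusted p = 5.34e-15). Prkdc, the catalytic subunit of the DNA-dependent protein kinase, had 283, 282 and 282 CPM in IMP1 IP, against 75.5, 71.7 and 75.1 CPM in IMP2 IP (log2 fold change 1.93, SE 0.0407, adjusted p = 5.34e-15). Mdn1 (ENSMUSG00000058006; chromosome 4, 32657114 to 32775217), the AAA-type ATPase midasin of ribosome assembly, had 1267, 1266 and 1232 CPM in IMP1 IP, against 336, 321 and 344 CPM in IMP2 IP, and 1101 ± 9.97 CPM in IgG IP (log2 fold change 1.91, SE 0.0393, adjusted p = 5.34e-15). Zc3h11a, for a zinc finger protein of mRNA export, had 51.1, 48.8 and 50.4 CPM in IMP1 IP, against 12.1, 13.6 and 13.4 CPM in IMP2 IP (log2 fold change 1.94, SE 0.0677, adjusted p = 2.9e-13). Rsrp1, for an arginine- and serine-rich protein, was the one protein-coding gene other than the histones among the 15 highest that spans under 5 kb, and had 164, 154 and 158 CPM in IMP1 IP, against 43.6, 44.2 and 44.2 CPM in IMP2 IP (log2 fold change 1.85, SE 0.0457, adjusted p = 9.45e-15).

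**Figure D2:**
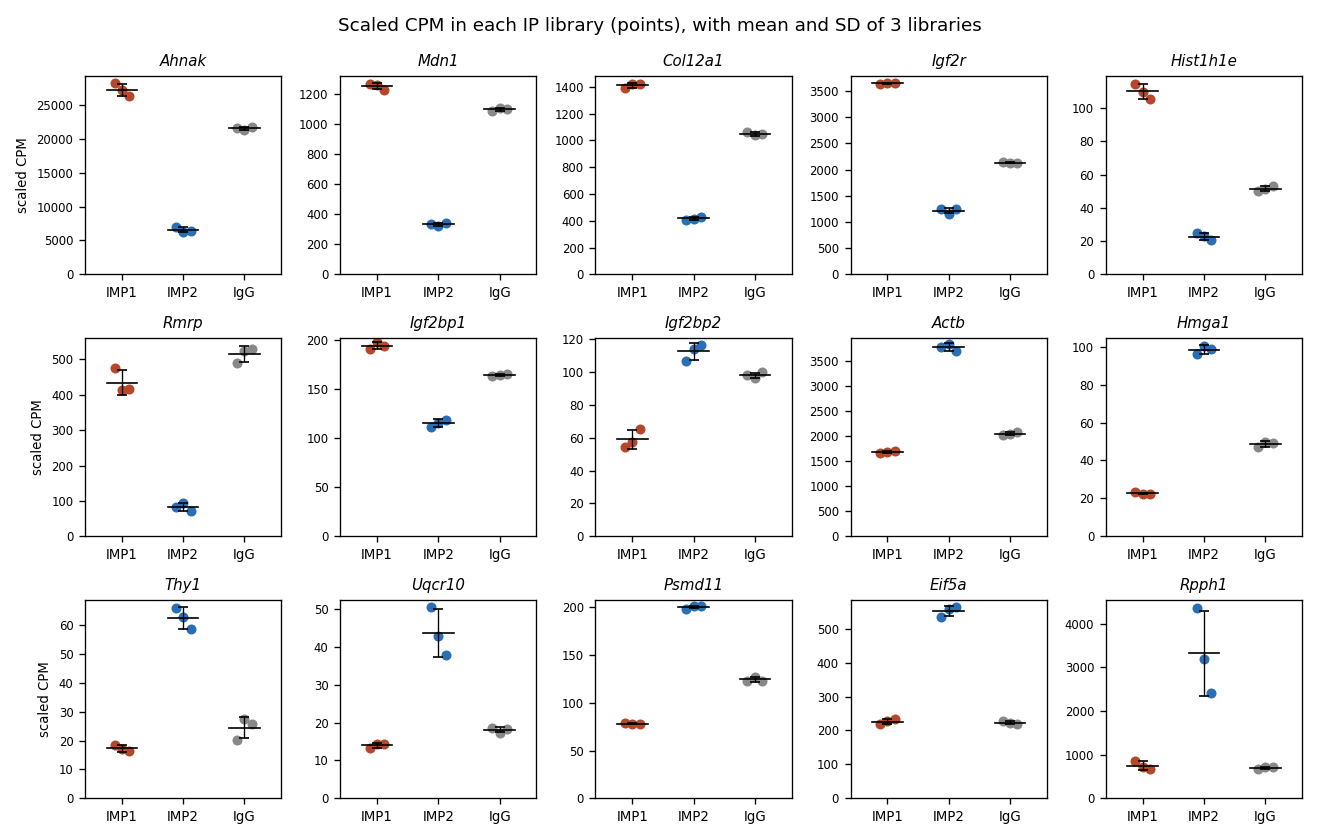
Scaled CPM (y axes, each from 0) of 15 genes in the 3 IMP1 IP (red), 3 IMP2 IP (blue) and 3 IgG IP (grey) libraries. Points are libraries, and black lines are the mean and SD. Ahnak, Mdn1, Col12a1, Igf2r, Hist1h1e, Rmrp and Igf2bp1 lie higher in IMP1 IP, the other 8 lie lower, and libraries of the pull-downs do not overlap in any panel.

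Motor genes were mostly higher in IMP1 IP. Of 32 kinesins and dynein heavy chains tested, out of 40, 28 were higher and 1 lower (21 higher and 4 lower with total count scaling), and the median log2 fold change was 0.75. Dync2h1, the motor of retrograde transport in cilia, had 110.3, 109.6 and 104 CPM in IMP1 IP, against 26.1, 27.8 and 28.6 CPM in IMP2 IP (log2 fold change 1.97, SE 0.0538, adjusted p = 2.14e-14). Dync1h1, the heavy chain of cytoplasmic dynein, had 3012, 3034 and 3009 CPM in IMP1 IP, against 907, 808 and 854 CPM in IMP2 IP (log2 fold change 1.82, SE 0.0432, adjusted p = 8.28e-15). The dynein heavy chains led the list, and the kinesins Kif13b and Kif5c followed at log2 fold changes of 1.29 and 1.27. The exception was Kif3c, a heterotrimeric kinesin subunit, which had 22, 22.6 and 23.1 CPM in IMP1 IP, against 31.1, 26 and 28.4 CPM in IMP2 IP (log2 fold change -0.33, SE 0.076, adjusted p = 0.000873).

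Giant ubiquitin ligases were higher in 28 of 29 members, with none lower and a median log2 fold change of 0.96, and 22 were higher and 3 lower with total count scaling. Herc2, a HECT ligase of the DNA damage response, had 686, 681 and 672 CPM in IMP1 IP, against 194, 171 and 187 CPM in IMP2 IP (log2 fold change 1.89, SE 0.0447, adjusted p = 8.28e-15). Birc6, which guards against apoptosis, had 2267, 2323 and 2338 CPM in IMP1 IP, against 681, 681 and 732 CPM in IMP2 IP (log2 fold change 1.73, SE 0.0401, adjusted p = 7.35e-15). Mycbp2 and Herc1 had log2 fold changes of 1.79 and 1.72. The one member not called was Ube3b.

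Chromatin genes followed the same direction. The 27 chromatin remodellers tested were all higher, with a median log2 fold change of 1.1 and 15 at least 2-fold. Chd7, the remodeller whose loss causes CHARGE syndrome in humans, had 22.6, 21 and 23 CPM in IMP1 IP, against 7.74, 7.52 and 7.27 CPM in IMP2 IP (log2 fold change 1.56, SE 0.0861, adjusted p = 7.75e-11). Chd8 had 433, 433 and 427 CPM in IMP1 IP, against 158, 145 and 149.7 CPM in IMP2 IP (log2 fold change 1.52, SE 0.0408, adjusted p = 1.98e-14). Baz2b and Chd1 had log2 fold changes of 1.4 and 1.35. Among 40 histone methyltransferases and demethylases, 35 were higher and 4 lower (26 higher and 7 lower with total count scaling), and the median log2 fold change was 0.77. Kmt2c and Kmt2a, large enzymes that methylate lysine 4 of histone H3, had 219, 218 and 223 CPM in IMP1 IP, against 70.2, 73.2 and 76.2 CPM in IMP2 IP for Kmt2c, and 716, 729.5 and 742 CPM in IMP1 IP, against 259, 261 and 266 CPM in IMP2 IP for Kmt2a. Their log2 fold changes were 1.58 and 1.48, and those of Nsd1 and Kdm5b were 1.42 and 1.38. Suv39h1, a smaller enzyme that methylates lysine 9, went the other way with 35, 36.2 and 36.2 CPM in IMP1 IP, against 45.2, 49.8 and 50.04 CPM in IMP2 IP (log2 fold change -0.44, SE 0.0595, adjusted p = 5.27e-06).

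Cohesin and condensin genes were mostly higher in IMP1 IP. Of 21 genes, 18 were higher and 2 lower (13 higher and 4 lower with total count scaling), and the median log2 fold change was 0.71. Pds5a, a regulator of cohesin on DNA, had 782, 770.2 and 780.3 CPM in IMP1 IP, against 273, 283 and 284 CPM in IMP2 IP (log2 fold change 1.47, SE 0.0364, adjusted p = 9.45e-15). Pds5b, the loader Nipbl and the cohesin subunit Stag1 had log2 fold changes of 1.37, 1.28 and 1.17. Rad21, the kleisin of the cohesin ring, was lower, with 272, 279 and 280.0 CPM in IMP1 IP, against 344, 397 and 381 CPM in IMP2 IP (log2 fold change -0.43, SE 0.0474, adjusted p = 4.07e-07). Ncaph2, the kleisin of condensin II, was lower as well, at a log2 fold change of -0.45.

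Nuclear pore genes split inside 1 complex. Of 28, 18 were higher and 9 lower with TMM scaling, and 11 higher and 10 lower with total count scaling. On the TMM scale the median log2 fold change was 0.37. Ranbp2, for the large filament protein on the cytoplasmic face, had 1596, 1640.3 and 1619.8 CPM in IMP1 IP, against 508, 498 and 512 CPM in IMP2 IP (log2 fold change 1.68, SE 0.036, adjusted p = 5.34e-15). Nup205, of the inner ring, had 1424, 1415 and 1418 CPM in IMP1 IP, against 579, 544 and 586 CPM in IMP2 IP (log2 fold change 1.32, SE 0.0385, adjusted p = 4.23e-14). Ahctf1 and Tpr, for ELYS and the basket filament, had log2 fold changes of 1.3 and 1.21. Aaas and Nup43, for small WD-repeat members, went the other way: Aaas had 25.7, 28.7 and 28.7 CPM in IMP1 IP, against 42.2, 46.8 and 48.5 CPM in IMP2 IP (log2 fold change -0.73, SE 0.0698, adjusted p = 7.69e-08), and Nup43 had a log2 fold change of -0.7. The members named here were picked by their folds. Among them the large filament and ring proteins were higher in IMP1 IP and the small repeat proteins lower. Protein size was not compared over the list.

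**Figure D3:**
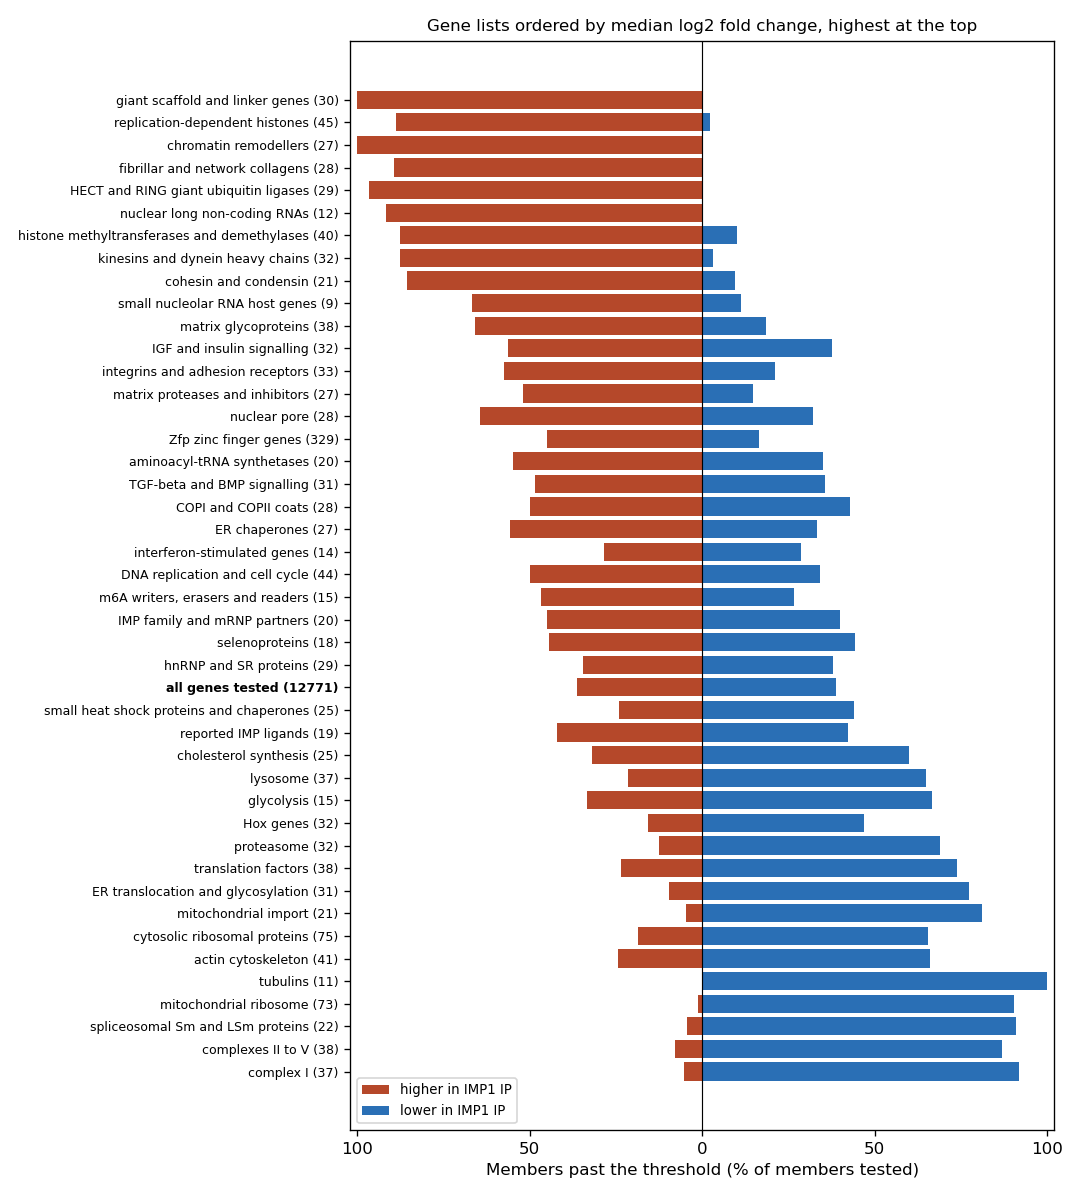
Members of 43 gene lists that were called (x axis, % of members tested), with red bars to the left for members higher in IMP1 IP and blue bars to the right for members lower. Lists with 9 or more members tested are ordered by median log2 fold change, with the number tested in brackets, and the row in bold is all genes tested (36.2% higher and 38.8% lower). Giant scaffolds (100% higher) stand at the top and complex I (91.9% lower) at the bottom.

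Extracellular matrix genes leaned to IMP1. Of 28 collagens tested, out of 44, 25 were higher and none lower, and the median log2 fold change was 1.00. With total count scaling 19 were higher and 2 lower, at a median of 0.64. Col12a1 (ENSMUSG00000032332; chromosome 9, 79598987 to 79721141), a fibril-associated collagen, had 1393, 1425 and 1421 CPM in IMP1 IP, against 406, 416 and 431 CPM in IMP2 IP, and 1051 ± 14 CPM in IgG IP (log2 fold change 1.76, SE 0.0379, adjusted p = 5.34e-15). Col6a3, the long chain of beaded-filament collagen VI, had 2650.0, 2627 and 2599 CPM in IMP1 IP, against 947, 833 and 889 CPM in IMP2 IP (log2 fold change 1.56, SE 0.0447, adjusted p = 3.38e-14). Col5a2 and Col11a1, fibrillar collagens, had log2 fold changes of 1.37 and 1.4. Every one of these 4 had its IMP1 IP libraries above its IMP2 IP libraries.

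The other matrix genes held both directions. Of 38 matrix glycoproteins tested, 25 were higher and 7 lower (22 higher and 13 lower with total count scaling), and the median log2 fold change was 0.64. Fbn1, the microfibril protein whose mutation causes Marfan syndrome in humans, had 348, 349.5 and 338 CPM in IMP1 IP, against 112, 104 and 114 CPM in IMP2 IP (log2 fold change 1.65, SE 0.0437, adjusted p = 1.6e-14). Vcan, the large proteoglycan versican, had 577, 598 and 583 CPM in IMP1 IP, against 209, 230.0 and 231 CPM in IMP2 IP (log2 fold change 1.39, SE 0.0431, adjusted p = 7.61e-14). Lama4, a laminin chain, had a log2 fold change of 1.32. Bgn (ENSMUSG00000031375; chromosome X, 73483601 to 73495936), the small leucine-rich proteoglycan biglycan, was the opposite, with 616, 629 and 646 CPM in IMP1 IP, against 1718, 2041 and 2064 CPM in IMP2 IP, and 1267 ± 7.37 CPM in IgG IP (log2 fold change -1.62, SE 0.0574, adjusted p = 3.38e-13). Fbln5, an elastic fibre protein, was lower too, at a log2 fold change of -0.73. Among matrix proteases and inhibitors, 14 of 27 were higher and 4 lower with TMM scaling, and 7 higher and 9 lower with total count scaling. The secreted proteases Adamts9 and Adamts6 had log2 fold changes of 1.35 and 0.97, and both kept that side under every scaling tried. Timp1, an inhibitor of matrix metalloproteinases, had 21.8, 21.9 and 19.7 CPM in IMP1 IP, against 43.2, 48.8 and 46.1 CPM in IMP2 IP (log2 fold change -1.12, SE 0.0695, adjusted p = 3.45e-10), and Timp3 had 772, 766 and 789 CPM in IMP1 IP, against 1322, 1367 and 1402 CPM in IMP2 IP (log2 fold change -0.81, SE 0.0371, adjusted p = 7.1e-12).

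Integrins and other adhesion receptors numbered 19 higher and 7 lower of 33 with TMM scaling, at a median log2 fold change of 0.40, and 11 higher and 11 lower with total count scaling, at 0.03. Itgb1, the beta chain common to most integrins, had 2609, 2668 and 2694 CPM in IMP1 IP, against 1377, 1402 and 1388 CPM in IMP2 IP (log2 fold change 0.94, SE 0.0353, adjusted p = 7.14e-13). Itgav and Itga1 had log2 fold changes of 1.1 and 1.18. The syndecans, small transmembrane proteoglycans, went the other way: Sdc4 had 124, 117 and 116 CPM in IMP1 IP, against 307, 289 and 287 CPM in IMP2 IP (log2 fold change -1.31, SE 0.0435, adjusted p = 1.74e-13), and Sdc1 had a log2 fold change of -0.77.

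Among the genes farthest below 0 was Hmga1 (ENSMUSG00000046711; chromosome 17, 27556574 to 27563672), for a chromatin protein of embryonic and tumour cells, which had 23.1, 22.4 and 22.2 CPM in IMP1 IP, against 96.2, 101 and 98.6 CPM in IMP2 IP, and 48.8 ± 1.44 CPM in IgG IP (log2 fold change -2.12, SE 0.0531, adjusted p = 9.82e-15). Its level in IMP2 IP was thus above IgG and that in IMP1 IP below it. Hmga2, the sister gene and an IMP target in other work, had 212, 214 and 228 CPM in IMP1 IP, against 211, 267 and 244 CPM in IMP2 IP, with overlapping libraries and an adjusted p of 0.0495. That call was lost in 9 of the 15 other settings, so no direction is given for Hmga2, though the counts of called genes include it. Myl6b, a myosin light chain, had 3.17, 3.01 and 3.91 CPM in IMP1 IP, against 18, 16.7 and 14.7 CPM in IMP2 IP (log2 fold change -2.28, SE 0.127, adjusted p = 8.63e-11). S100a1 and Wdr83os, small proteins of calcium binding and of membrane protein insertion, had log2 fold changes of -2.12 and -2.13. Pcbp2, a poly(C)-binding protein and the largest gene among the 15 lowest, had 106, 108 and 109.9 CPM in IMP1 IP, against 354, 405 and 382 CPM in IMP2 IP (log2 fold change -1.82, SE 0.0492, adjusted p = 2.07e-14). Dazap2 and Aes, a small proline-rich protein and a short corepressor of the Groucho family, had log2 fold changes of -1.77 and -1.75, and Mospd3, a small membrane protein, one of -1.95.

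The tested Thy1, Ly6 and Ifitm genes of the cell surface were all lower in IMP1 IP. Thy1, a lipid-anchored surface marker of fibroblasts, had 18.6, 17 and 16.4 CPM in IMP1 IP, against 66, 62.9 and 58.6 CPM in IMP2 IP, and 24.5 ± 3.72 CPM in IgG IP (log2 fold change -1.85, SE 0.0695, adjusted p = 7.02e-13). Ly6e, of the same lipid-anchored superfamily, had 40.1, 41.1 and 39.9 CPM in IMP1 IP, against 138, 134 and 134 CPM in IMP2 IP (log2 fold change -1.75, SE 0.0459, adjusted p = 1.55e-14). The other tested Ly6 genes, Ly6a and Ly6c1, had log2 fold changes of -1.51 and -1.38, so 4 of 4 tested members of that list were lower, out of 12 in the files. Ifitm2, for an interferon-induced membrane protein that hinders virus entry, had 9.93, 11.5 and 11.7 CPM in IMP1 IP, against 38.4, 56.3 and 53.9 CPM in IMP2 IP (log2 fold change -2.18, SE 0.127, adjusted p = 1.66e-10), and 3 of 3 Ifitm genes tested were lower. Cd34, a sialomucin, had 344, 355 and 344 CPM in IMP1 IP, against 760.3, 838 and 849 CPM in IMP2 IP (log2 fold change -1.23, SE 0.0443, adjusted p = 4.07e-13). Bsg, for the transporter chaperone basigin, had 350.4, 350.0 and 331 CPM in IMP1 IP, against 784, 796 and 734 CPM in IMP2 IP (log2 fold change -1.17, SE 0.042, adjusted p = 4.16e-13). The small heat shock genes Hspb6, Hspb8 and Cryab stood at log2 fold changes of -2.0, -1.51 and -1.4, while their list of 25 chaperones held 6 higher and 11 lower with TMM scaling, at a median of -0.09, and 0 higher and 23 lower with total count scaling, at -0.45.

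The actin cytoskeleton held both directions. Of 41 genes, 10 were higher and 27 lower, and the median log2 fold change was -0.66. Actb (ENSMUSG00000029580; chromosome 5, 142903115 to 142907976), the beta-actin message through which IMP1 was first described as a zipcode-binding protein in chicken, had 1665, 1677 and 1704 CPM in IMP1 IP, against 3788, 3856 and 3714 CPM in IMP2 IP, and 2052 ± 25.4 CPM in IgG IP (log2 fold change -1.17, SE 0.036, adjusted p = 7.25e-14). Every IMP1 IP library was thus below every IMP2 IP library and below the IgG mean. Tagln2 had 56.5, 56.1 and 60.5 CPM in IMP1 IP, against 197, 209.8 and 202 CPM in IMP2 IP (log2 fold change -1.81, SE 0.0469, adjusted p = 1.33e-14). Pfn1, for the actin monomer binder profilin, had 224, 231 and 209.6 CPM in IMP1 IP, against 711, 692 and 624 CPM in IMP2 IP (log2 fold change -1.61, SE 0.0511, adjusted p = 9.65e-14), and Cfl1, for the severing protein cofilin, had 223, 223 and 205 CPM in IMP1 IP, against 694, 639 and 581 CPM in IMP2 IP (log2 fold change -1.55, SE 0.0565, adjusted p = 4.71e-13). Tmsb4x and Acta2 had log2 fold changes of -1.45 and -1.11. Tln1, for talin, which couples integrins to actin, went the other way with 2986, 2959 and 2956 CPM in IMP1 IP, against 1161, 1004 and 1074 CPM in IMP2 IP (log2 fold change 1.46, SE 0.0467, adjusted p = 1.1e-13), as did Flna and Myh9 above. The highest member, named after its values were seen, was Actg1, for gamma-actin, at only 6.82, 6.54 and 6.61 CPM in IMP1 IP, against 1.41, 1.26 and 1.38 CPM in IMP2 IP, and 14.3 ± 0.965 CPM in IgG IP (log2 fold change 2.3). The 11 tubulins tested, out of 17, were all lower, and the median log2 fold change was -0.67. Tuba1b had 28.2, 30.9 and 28.3 CPM in IMP1 IP, against 85.9, 73.8 and 74 CPM in IMP2 IP (log2 fold change -1.42, SE 0.0686, adjusted p = 1.52e-11), and the abundant Tubb5 had 1088, 1103 and 1103 CPM in IMP1 IP, against 1623, 1581 and 1601 CPM in IMP2 IP (log2 fold change -0.54, SE 0.0347, adjusted p = 5.06e-10). Actins and tubulins have near-identical copies and pseudogenes, so their counts are uncertain.

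Among lists with 9 or more members tested, those of the respiratory chain had the lowest medians. Of 37 complex I genes, 34 were lower in IMP1 IP and 2 higher, with a median log2 fold change of -0.90. Ndufa7, an accessory subunit, had 16, 16.7 and 17.4 CPM in IMP1 IP, against 45.6, 50.4 and 44.5 CPM in IMP2 IP (log2 fold change -1.49, SE 0.0715, adjusted p = 1.37e-11). Ndufb9, Ndufa2 and Ndufa11 had log2 fold changes of -1.34, -1.33 and -1.31. Ndufs1, the largest subunit of the complex, was higher, with 118, 118 and 116 CPM in IMP1 IP, against 76.6, 71.1 and 72.7 CPM in IMP2 IP (log2 fold change 0.68, SE 0.0452, adjusted p = 9.1e-10). Of 38 genes of complexes II to V, 33 were lower and 3 higher, with a median log2 fold change of -0.86. The list's highest member, named after its values were seen, was the small subunit Cox7c, scarce at 2.87, 2.18 and 3.34 CPM in IMP1 IP, against 0.735, 0.522 and 0.325 CPM in IMP2 IP (log2 fold change 2.45). Uqcr10, a small subunit of complex III, had 13.3, 14.4 and 14.3 CPM in IMP1 IP, against 50.5, 42.8 and 37.8 CPM in IMP2 IP, and 18.1 ± 0.686 CPM in IgG IP (log2 fold change -1.63, SE 0.0984, adjusted p = 2.41e-10). Cox8a had 25.7, 19.5 and 22.9 CPM in IMP1 IP, against 77.9, 71.9 and 64.1 CPM in IMP2 IP (log2 fold change -1.65, SE 0.0884, adjusted p = 5.67e-11). Complex II held both directions: its membrane anchor Sdhc had 22.7, 22 and 21.5 CPM in IMP1 IP, against 66.2, 67.2 and 66.9 CPM in IMP2 IP (log2 fold change -1.6, SE 0.056, adjusted p = 3.04e-13), and its large flavoprotein Sdha had 281, 283 and 284 CPM in IMP1 IP, against 173, 177 and 174 CPM in IMP2 IP (log2 fold change 0.69, SE 0.0366, adjusted p = 4.63e-11).

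The mitochondrial ribosome and import machinery showed the same lean. Of 73 mitochondrial ribosomal protein genes tested, 66 were lower and 1 higher, with a median log2 fold change of -0.79. Mrpl36 had 4.31, 3.08 and 3.97 CPM in IMP1 IP, against 13.1, 12.3 and 12.1 CPM in IMP2 IP (log2 fold change -1.71, SE 0.121, adjusted p = 1.86e-09). Mrpl18 and Mrps6 had log2 fold changes of -1.32 and -1.35. Of 21 import genes, 17 were lower and 1 higher, with a median log2 fold change of -0.54. Timm17b, of the inner membrane translocase, had 5.56, 5.96 and 5.04 CPM in IMP1 IP, against 22.7, 17.8 and 15.8 CPM in IMP2 IP (log2 fold change -1.75, SE 0.136, adjusted p = 5.81e-09). Timm22 and Tomm7 had log2 fold changes of -1.37 and -1.36.

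Genes of the cytosolic translation apparatus were mostly lower in IMP1 IP. Of 75 cytosolic ribosomal protein genes tested, 49 were lower and 14 higher, with a median log2 fold change of -0.61. Rpl34 had 16.9, 16.4 and 17.9 CPM in IMP1 IP, against 51.5, 55.6 and 46.3 CPM in IMP2 IP (log2 fold change -1.58, SE 0.0775, adjusted p = 1.76e-11). Rplp1, of the ribosomal stalk, had 100.3, 96.7 and 98.9 CPM in IMP1 IP, against 296, 293 and 248 CPM in IMP2 IP (log2 fold change -1.5, SE 0.0592, adjusted p = 1.24e-12). Rpl10a had 49.6, 50.3 and 46.9 CPM in IMP1 IP, against 21.8, 16.3 and 14.2 CPM in IMP2 IP (log2 fold change 1.51, SE 0.106, adjusted p = 1.71e-09), and its direction was the reverse of most of the list. Below 5 kb, 63 of these genes had a median of -0.61, against -0.54 for all protein-coding genes of that span, and with the 10 CPM filter 3 were higher and 46 lower of 53. Ribosomal protein genes have many processed pseudogenes, and reads that fit several places were not counted, so these values are uncertain. Of 38 translation factors, 28 were lower and 9 higher (4 higher and 30 lower with total count scaling), with a median log2 fold change of -0.46. Eif5a, for the hypusine-bearing elongation factor, had 218, 229 and 233 CPM in IMP1 IP, against 536, 558 and 563 CPM in IMP2 IP, and 222 ± 4.39 CPM in IgG IP (log2 fold change -1.29, SE 0.0399, adjusted p = 7.52e-14). Eif4e, for the cap-binding protein, had 24.7, 24.1 and 26.1 CPM in IMP1 IP, against 52.7, 62.5 and 63.4 CPM in IMP2 IP (log2 fold change -1.26, SE 0.0741, adjusted p = 1.83e-10). Eif4g1, for the large scaffold that joins the cap-binding protein to the ribosome, had 2450.3, 2490.3 and 2494 CPM in IMP1 IP, against 1145, 1093 and 1118 CPM in IMP2 IP (log2 fold change 1.15, SE 0.0361, adjusted p = 8.98e-14), and its relative Eif4g3 had a log2 fold change of 1.01. The subunits of the cap-binding complex therefore fell on opposite sides.

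Aminoacyl-tRNA synthetases numbered 11 higher and 7 lower of 20 with TMM scaling, and 5 higher and 10 lower with total count scaling. Eprs, a fused enzyme for glutamate and proline, had 1184, 1193 and 1182 CPM in IMP1 IP, against 563, 518 and 536 CPM in IMP2 IP (log2 fold change 1.14, SE 0.0389, adjusted p = 2.31e-13). Dars, for aspartate, had 48.9, 45.2 and 49.4 CPM in IMP1 IP, against 82.4, 84.3 and 81.1 CPM in IMP2 IP (log2 fold change -0.79, SE 0.0511, adjusted p = 6.38e-10). These kept their sides under both scalings, as did Lars, at a log2 fold change of 1.04.

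Proteasome genes and genes of the Sm and LSm family were mostly lower in IMP1 IP. Of 32 proteasome genes, 22 were lower and 4 higher, with a median log2 fold change of -0.45. Psmd11, for a lid subunit, had 78.8, 78.2 and 77.5 CPM in IMP1 IP, against 199, 201 and 201 CPM in IMP2 IP, and 124 ± 2.5 CPM in IgG IP (log2 fold change -1.35, SE 0.0403, adjusted p = 4.93e-14). The core subunits Psmb2 and Psma2 had log2 fold changes of -1.06 and -1.02. Psmd1 and Psmd2, the largest base subunits, were higher, and Psmd1 had 282, 274 and 279 CPM in IMP1 IP, against 178, 171 and 174 CPM in IMP2 IP (log2 fold change 0.68, SE 0.0378, adjusted p = 8.81e-11), with Psmd2 at a log2 fold change of 0.65. The Sm and LSm family includes the subunits of small rings on spliceosomal and decay RNAs, but not every member is a ring subunit. Of 22 genes of the family tested, 20 were lower and 1 higher, with a median log2 fold change of -0.85. Lsm12 had 41.3, 37.9 and 41.2 CPM in IMP1 IP, against 125, 122 and 118 CPM in IMP2 IP (log2 fold change -1.6, SE 0.051, adjusted p = 1.02e-13). Snrpe, Lsm3 and Lsm2 had log2 fold changes of -1.22, -1.2 and -1.19. Genes of hnRNP and SR proteins numbered 10 higher and 11 lower of 29 with TMM scaling, and 4 higher and 18 lower with total count scaling. Srsf5, a splicing regulator, was the highest of them, at a log2 fold change of 1.13.

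**Figure D4:**
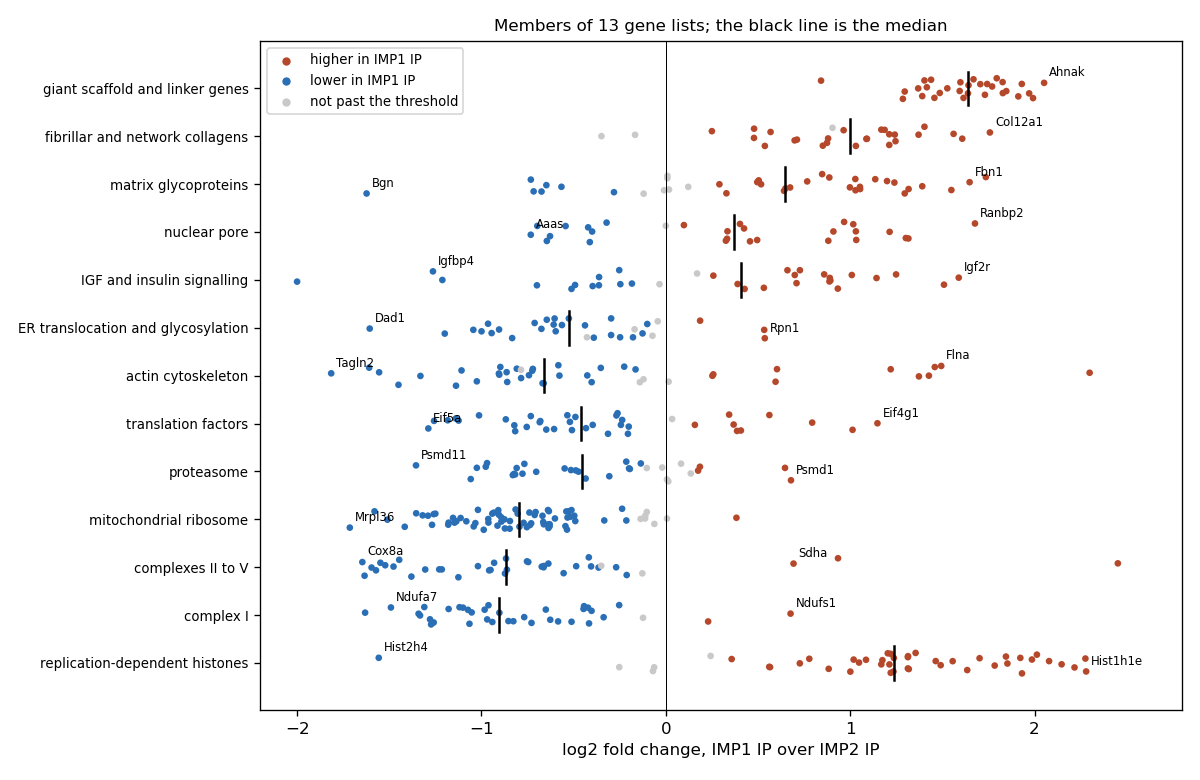
Log2 fold change of IMP1 IP over IMP2 IP (x axis) for each member tested of 13 gene lists (rows), with red for higher and blue for lower in IMP1 IP and grey for not past the threshold. Black lines are list medians, from 1.64 for giant scaffolds to -0.90 for complex I. Labelled members such as Ndufs1, Sdha, Psmd1, Eif4g1 and Bgn lie on the side opposite to most of their list.

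The secretory pathway held both directions. Of 31 genes of translocation into the endoplasmic reticulum (ER) and of N-glycosylation, 24 were lower and 3 higher, with a median log2 fold change of -0.53. Dad1, a small subunit of the oligosaccharyltransferase, had 16.5, 15.5 and 15.6 CPM in IMP1 IP, against 44.6, 53.4 and 46.7 CPM in IMP2 IP (log2 fold change -1.61, SE 0.0785, adjusted p = 1.71e-11). Srprb and Spcs1 had log2 fold changes of -1.04 and -1.0. Rpn1, a large subunit of the same transferase, was higher, with 425, 414 and 415 CPM in IMP1 IP, against 306, 281 and 278 CPM in IMP2 IP (log2 fold change 0.54, SE 0.0417, adjusted p = 5.95e-09), as was Ssr1, at a log2 fold change of 0.53. ER chaperones numbered 15 higher and 9 lower of 27 with TMM scaling, but 3 higher and 20 lower with total count scaling and 8 higher and 10 lower with no filter on low counts. The glucosyltransferases Uggt2 and Uggt1, which test the folding of glycoproteins, had log2 fold changes of 1.69 and 1.26, and Uggt1 had 885, 886 and 879 CPM in IMP1 IP, against 361, 368 and 375 CPM in IMP2 IP. Ppib, a cyclophilin of the ER, had a log2 fold change of -0.9. Vesicle coat genes numbered 14 higher and 12 lower of 28, and 8 higher and 15 lower with total count scaling. Sec16a, the scaffold of ER exit sites, had 394, 385 and 398 CPM in IMP1 IP, against 187, 182 and 194 CPM in IMP2 IP (log2 fold change 1.06, SE 0.0387, adjusted p = 4.71e-13). Kdelr2, the receptor that returns ER proteins, had 77.2, 74.8 and 78.7 CPM in IMP1 IP, against 207, 227 and 227 CPM in IMP2 IP (log2 fold change -1.52, SE 0.0478, adjusted p = 8.97e-14), and Copz2, a small coatomer subunit, had a log2 fold change of -1.57.

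Lysosomal genes were lower in 24 and higher in 8 of 37 (3 higher and 34 lower with total count scaling), with a median log2 fold change of -0.37. Small subunits of the proton pump led the list: Atp6v0e had 26.5, 25.9 and 24.7 CPM in IMP1 IP, against 77.9, 81.7 and 73 CPM in IMP2 IP (log2 fold change -1.59, SE 0.0606, adjusted p = 7.88e-13), and Atp6v1f and Atp6v1g1 had log2 fold changes of -1.54 and -1.44. Npc1, the large cholesterol exporter of the lysosome, was higher, at a log2 fold change of 0.65. Of 25 cholesterol synthesis genes, 15 were lower and 8 higher (3 higher and 18 lower with total count scaling), with a median log2 fold change of -0.36. Mvk, for mevalonate kinase, had 8.37, 8.97 and 8.69 CPM in IMP1 IP, against 23.5, 18 and 21.6 CPM in IMP2 IP (log2 fold change -1.27, SE 0.106, adjusted p = 1.54e-08). Of 15 glycolysis genes, 10 were lower and 5 higher, with a median log2 fold change of -0.38. Tpi1 had 111, 114 and 115 CPM in IMP1 IP, against 259.6, 235 and 232 CPM in IMP2 IP (log2 fold change -1.09, SE 0.0477, adjusted p = 3.99e-12), and Aldoa had a log2 fold change of -1.05. The hexokinase Hk2 was higher, at a log2 fold change of 0.69. Gapdh also counted among the higher genes, but at 17.8, 17 and 17.9 CPM in IMP1 IP, against 5.71, 6.04 and 5.16 CPM in IMP2 IP it was far below what a glycolytic enzyme usually shows in such cells, and its many pseudogenes leave its count uncertain.

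The insulin-like growth factor pathway, after which the proteins are named, held both directions. Of 32 genes tested, 18 were higher and 12 lower (15 higher and 13 lower with total count scaling), and the median log2 fold change was 0.41. Igf2, the message of the ligand itself, was hardly present, with 0.299, 0.128 and 0.126 CPM in IMP1 IP, against 0.961, 0.478 and 0.894 CPM in IMP2 IP, from as few as 2 counts in a library, and no fold is given. Igf2r (ENSMUSG00000023830; chromosome 17, 12682406 to 12769706), the receptor that clears the ligand and carries lysosomal enzymes, had 3640.0, 3664 and 3652 CPM in IMP1 IP, against 1241, 1160.5 and 1239.6 CPM in IMP2 IP, and 2134 ± 6.54 CPM in IgG IP (log2 fold change 1.59, SE 0.0387, adjusted p = 9.14e-15). Igf1r, the signalling receptor, had 509.6, 514 and 507 CPM in IMP1 IP, against 256, 244 and 261 CPM in IMP2 IP (log2 fold change 1.01, SE 0.0381, adjusted p = 7.18e-13). Insr and Irs1, the insulin receptor and its docking protein, had log2 fold changes of 0.89 and 1.14. The receptors and docking proteins named here were thus all higher in IMP1 IP.

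Downstream, the genes named here held both directions. Mtor had 264, 278 and 276 CPM in IMP1 IP, against 119, 109 and 117 CPM in IMP2 IP (log2 fold change 1.25, SE 0.0442, adjusted p = 3.37e-13). Rictor and Rptor, the scaffolds of its complexes, had log2 fold changes of 1.51 and 0.71, and Rictor had 302, 302 and 301 CPM in IMP1 IP, against 97.8, 109.7 and 110.1 CPM in IMP2 IP. Mlst8, the small subunit of both complexes, was lower, at a log2 fold change of -0.25. Rheb, the small GTPase that activates mTOR, had 65.7, 63.1 and 64.6 CPM in IMP1 IP, against 92.9, 93.7 and 89.3 CPM in IMP2 IP (log2 fold change -0.51, SE 0.0462, adjusted p = 3.96e-08). Eif4ebp1, the translation repressor that mTOR phosphorylates, had 40.1, 39.9 and 38.7 CPM in IMP1 IP, against 83, 101 and 90.2 CPM in IMP2 IP (log2 fold change -1.21, SE 0.067, adjusted p = 8.2e-11). Igfbp4, a secreted binder of the ligands, was lower too, at a log2 fold change of -1.26, and Akt2 at -0.49. TGF-beta and BMP genes numbered 15 higher and 11 lower of 31 with TMM scaling, and 5 higher and 15 lower with total count scaling. Ltbp1, the latent TGF-beta binder, had 1923, 1895 and 1893 CPM in IMP1 IP, against 908, 836 and 855 CPM in IMP2 IP (log2 fold change 1.14, SE 0.0392, adjusted p = 2.52e-13). Id3, a small target gene of BMP signalling, had 57.6, 54.6 and 54.7 CPM in IMP1 IP, against 159, 129 and 129 CPM in IMP2 IP (log2 fold change -1.32, SE 0.072, adjusted p = 7.06e-11).

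Messages reported for IMP proteins in other work held both directions. Of 19 tested, 8 were higher and 8 lower with TMM scaling, and 3 higher and 12 lower with total count scaling. With TMM scaling that was 42.1% each way, against 36.2% higher and 38.8% lower of all genes tested. The median log2 fold change was -0.14 and -0.51 on these scales. Lamb2, a laminin chain, had 587, 545 and 534 CPM in IMP1 IP, against 298, 251 and 269 CPM in IMP2 IP (log2 fold change 1.03, SE 0.0548, adjusted p = 5.06e-11). Abcb1b, a multidrug transporter, had a log2 fold change of 0.99. Myc, whose coding region IMP1 binds in other work, had 149, 146 and 144 CPM in IMP1 IP, against 101, 110.4 and 93.3 CPM in IMP2 IP (log2 fold change 0.53, SE 0.0538, adjusted p = 1.77e-07). Ccng1 and Ccnd1 were lower, at log2 fold changes of -0.75 and -0.23. Cd44, the hyaluronan receptor, had 893, 905 and 916 CPM in IMP1 IP, against 939, 1052 and 1015 CPM in IMP2 IP, a small difference of -0.15. Hmga1 and Actb, described above, and Lamb2 were at least 2-fold apart, and the other ligands given a fold were not.

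Messages of proteins found with IMPs in granules numbered 9 higher and 8 lower of 20 with TMM scaling, and 4 higher and 14 lower with total count scaling. Dhx36, a helicase of G-quadruplex RNA, had 461, 464 and 458 CPM in IMP1 IP, against 159.5, 174 and 166 CPM in IMP2 IP (log2 fold change 1.47, SE 0.0405, adjusted p = 2.27e-14). Dhx9 and Fxr2 had log2 fold changes of 0.77 and 0.67. Ybx1, a cold shock protein of stored mRNA, had 80.1, 83.9 and 87.6 CPM in IMP1 IP, against 147, 187 and 169 CPM in IMP2 IP (log2 fold change -1.0, SE 0.069, adjusted p = 1.32e-09). Pabpc1, the poly(A)-binding protein, had 1134, 1129.8 and 1131 CPM in IMP1 IP, against 2018, 2024 and 1996 CPM in IMP2 IP (log2 fold change -0.83, SE 0.0345, adjusted p = 2.22e-12), and Elavl1 had a log2 fold change of -0.72. The m6A genes, which write, erase and read the methyl mark that IMP proteins are reported to recognise, numbered 7 higher and 4 lower of 15, and 4 higher and 8 lower with total count scaling. Virma, the large scaffold of the writer complex, had 414, 409 and 399 CPM in IMP1 IP, against 169, 169 and 178 CPM in IMP2 IP (log2 fold change 1.24, SE 0.0387, adjusted p = 7.97e-14). Mettl3 and Mettl14, which form the catalytic core of the writer, had log2 fold changes of 0.74 and -0.42 in opposite directions, both below 2-fold. Ythdc2, a reader with a helicase domain, had a log2 fold change of 1.39.

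Cell cycle genes numbered 22 higher and 15 lower of 44, and 16 higher and 23 lower with total count scaling. Top2a, the topoisomerase of dividing cells, had 1929.8, 1939 and 1962 CPM in IMP1 IP, against 756, 726 and 738 CPM in IMP2 IP (log2 fold change 1.39, SE 0.036, adjusted p = 1.33e-14). Pole, Cenpe and Cenpf, for a replicative polymerase and large kinetochore proteins, had log2 fold changes of 1.39, 1.27 and 1.11. Cdk4, the kinase partner of D-type cyclins, had 218, 212 and 206 CPM in IMP1 IP, against 436, 395 and 378 CPM in IMP2 IP (log2 fold change -0.92, SE 0.0489, adjusted p = 4.66e-11). Selenoprotein genes numbered 8 higher and 8 lower of 18, and 5 higher and 10 lower with total count scaling, from Selenow at a log2 fold change of -1.4 to Selenop at 1.01. Among transcription factors, 15 of 32 Hox genes were lower and 5 higher (1 higher and 23 lower with total count scaling), with a median log2 fold change of -0.39. That was 46.9% lower and 15.6% higher, against 38.8% and 36.2% of all genes tested. Below 5 kb, 20 Hox genes had a median of -0.30, against -0.54 for all protein-coding genes of that span. Hoxc10 had 9.93, 11 and 9.83 CPM in IMP1 IP, against 28.1, 32.4 and 30.3 CPM in IMP2 IP (log2 fold change -1.57, SE 0.0849, adjusted p = 6.34e-11), and Hoxa5 was on the other side, at a log2 fold change of 0.75. Zfp zinc finger genes numbered 148 higher and 54 lower of 329, and 77 higher and 126 lower with total count scaling. Zfp704 and Zfp292 had log2 fold changes of 1.7 and 1.45, and Zfp358 one of -1.29.

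The replication-dependent histone messages tested went against most genes of short span. They end in a stem-loop in place of a poly(A) tail. Of 45 tested, out of 67, 40 were higher in IMP1 IP and 1 lower, 34 of the 40 at least 2-fold, with a median log2 fold change of 1.24. With the 10 CPM filter 10 were left, 9 higher and 1 lower. Both filters admit a gene that is high enough in either pull-down alone. Scarce histone genes can thus enter through IMP1 IP, so these counts and the median describe only the members tested. Hist1h1e (ENSMUSG00000051627; chromosome 13, 23621777 to 23622558), a linker histone, had 115, 109.8 and 106 CPM in IMP1 IP, against 24.6, 23.2 and 20.4 CPM in IMP2 IP, and 51.5 ± 1.46 CPM in IgG IP (log2 fold change 2.28, SE 0.0645, adjusted p = 2.94e-14). Hist1h1d, another linker histone, had 45.7, 44.1 and 39.9 CPM in IMP1 IP, against 11.4, 8.87 and 9.26 CPM in IMP2 IP (log2 fold change 2.15, SE 0.0906, adjusted p = 2.76e-12). The core histones Hist1h2bj and Hist1h2ak had log2 fold changes of 2.28 and 2.22. Hist2h4, an H4 gene, was the 1 lower member, with 12.3, 10.1 and 9.7 CPM in IMP1 IP, against 38, 31.9 and 25.4 CPM in IMP2 IP (log2 fold change -1.56, SE 0.132, adjusted p = 1.82e-08). In the histone genes named here the libraries of the pull-downs did not overlap, though near-identical copies leave the count of any single one uncertain.

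Of 10 short structured non-coding RNAs in the files, 6 were tested, 5 higher in IMP1 IP and 1 lower. Over all genes tested, 36.2% were higher and 38.8% lower. With the 10 CPM filter 4 were left, 3 higher and 1 lower. The limit of the filter given for the histones holds here too, so no direction is drawn for the class. Rmrp (ENSMUSG00000088088; chromosome 4, 43492785 to 43493059), the RNA of the ribonuclease MRP that cuts pre-ribosomal RNA, had 475, 414 and 417 CPM in IMP1 IP, against 83.6, 93.3 and 70.3 CPM in IMP2 IP, and 516 ± 21.7 CPM in IgG IP (log2 fold change 2.4, SE 0.0787, adjusted p = 1.42e-13). Rpph1 (ENSMUSG00000092837; chromosome 14, 50807447 to 50807771), the RNA of ribonuclease P, which trims tRNA precursors and shares most of its protein subunits with MRP, had 856, 721 and 667 CPM in IMP1 IP, against 4357, 3184 and 2419 CPM in IMP2 IP, and 698 ± 21.9 CPM in IgG IP (log2 fold change -2.15, SE 0.146, adjusted p = 1.15e-09). These related enzymes thus differed in opposite directions: Rmrp in IMP2 IP lay below its IgG level, and Rpph1 in IMP2 IP lay above it. The IMP2 IP libraries were unequal in Rpph1, replicate 1 being the highest, yet the lowest of them stayed above the highest IMP1 IP library. Rn7sk, the RNA that holds back the transcription elongation kinase, had 282, 269 and 255 CPM in IMP1 IP, against 76.4, 92.1 and 64.5 CPM in IMP2 IP (log2 fold change 1.79, SE 0.0863, adjusted p = 1.44e-11). Terc, the template RNA of telomerase, had 3.23, 2.95 and 2.71 CPM in IMP1 IP, against 0.735, 0.565 and 0.406 CPM in IMP2 IP (log2 fold change 2.41, SE 0.23, adjusted p = 7.71e-08). Scarna2 and Rny3 had log2 fold changes of 1.84 and 1.49.

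By biotype, 12 of 12 small nuclear RNA genes tested, 30 of 32 small nucleolar RNA genes and 8 of 8 guide RNA genes were higher. Their median log2 fold changes were 2.71, 2.4 and 1.93. Over all genes tested, 36.2% were higher. The expression filter admits a gene that is high enough in either pull-down alone. Scarce RNAs can thus enter through IMP1 IP, where they are higher, so no result about these biotypes is drawn from the counts. Rnu3a, a U3 RNA of ribosome assembly, had 5.14, 4.1 and 3.21 CPM in IMP1 IP, against 0.17, 0.304 and 0.0406 CPM in IMP2 IP, and 7.71 ± 0.0852 CPM in IgG IP. Snora43 had 11.9, 13.3 and 12.7 CPM in IMP1 IP, against 4.69, 3.78 and 3.45 CPM in IMP2 IP, and 14.1 ± 1.11 CPM in IgG IP (log2 fold change 1.69, SE 0.119, adjusted p = 1.93e-09). These RNAs were scarce in both pull-downs, and many lie inside introns of host genes, so reads of the host can be counted to them. Leaving out IMP2 IP replicate 2 moved the fold of Rnu3a by more than 1.5 times, and its fold is therefore not given.

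Of 6 miRNA genes tested, 4 were higher and none lower, under the same limit of the filter. The sequences of their mature products are shown to identify them, from RefSeq on GRCm38.p6, 5′ to 3′, with the seed (bases 2 to 8) in capitals. No seed is shared between them.
mmu-miR-6236 (chr9:110281353-110281371, plus strand): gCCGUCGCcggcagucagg
mmu-miR-8091 (chr19:41588691-41588712, plus strand): aGGAGUGAgugguaagcuggug
mmu-miR-5125 (chr17:23823339-23823358, plus strand): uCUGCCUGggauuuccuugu
mmu-miR-7650-5p (chr9:15312611-15312632, plus strand): aAUCCUCUugcaacccagaacu
mmu-miR-7650-3p (chr9:15312648-15312669, plus strand): gUUUUGAUauauacaagaagga

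A TruSeq library counts fragments over the gene and does not measure the mature miRNA. Mir6236, the gene of the first sequence, had 42, 19.2 and 19.3 CPM in IMP1 IP, against 8.99, 5.35 and 3.05 CPM in IMP2 IP, and 5.29 ± 0.772 CPM in IgG IP (log2 fold change 2.28, SE 0.309, adjusted p = 5.09e-06). Replicate 1 was the highest in both pull-downs, and the groups did not overlap. Mir8091 had 4.72, 4.42 and 5.1 CPM in IMP1 IP, against 1.98, 1.96 and 1.54 CPM in IMP2 IP (log2 fold change 1.39, SE 0.156, adjusted p = 5.73e-07). Mir5125 had 1.2, 1.92 and 1.2 CPM in IMP1 IP, against 0.509, 0.565 and 0.487 CPM in IMP2 IP (log2 fold change 1.45, SE 0.287, adjusted p = 0.000251), and Gm25500, the locus of both miR-7650 products, had 1.08, 1.28 and 1.26 CPM in IMP1 IP, against 0.113, 0.13 and 0.203 CPM in IMP2 IP, from as few as 2 counts in an IMP2 IP library, so no fold is given. Both stood between 1 and 2 CPM in IMP1 IP and higher in IgG IP, at 4.05 ± 0.522 CPM and 2.46 ± 0.221 CPM.

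Nuclear long non-coding RNAs were also higher in IMP1 IP than in IMP2 IP, yet low against IgG. Of 12 tested, 11 were higher and none lower, and the median log2 fold change was 0.81. Malat1, of nuclear speckles, had 1579, 1562 and 1569 CPM in IMP1 IP, against 1031, 1046 and 1019 CPM in IMP2 IP, and 6745 ± 77.1 CPM in IgG IP (log2 fold change 0.61, SE 0.0347, adjusted p = 1.29e-10). Neat1, of paraspeckles, had 65.7, 68 and 66.5 CPM in IMP1 IP, against 31.1, 29.7 and 31 CPM in IMP2 IP, and 741 ± 7.05 CPM in IgG IP (log2 fold change 1.12, SE 0.0531, adjusted p = 1.12e-11). Xist, which coats the inactive X chromosome, had 118, 125 and 124 CPM in IMP1 IP, against 43.3, 58.6 and 57.8 CPM in IMP2 IP, and 778 ± 21.4 CPM in IgG IP (log2 fold change 1.19, SE 0.0806, adjusted p = 1.06e-09). Kcnq1ot1 and Meg3, of imprinted loci, had log2 fold changes of 0.78 and 0.68. Tug1 differed from these in its background: it had 212, 218 and 233 CPM in IMP1 IP, against 112, 132 and 127 CPM in IMP2 IP (log2 fold change 0.84, SE 0.0551, adjusted p = 7.29e-10), and 152 ± 4.42 CPM in IgG IP. In the nuclear RNAs Malat1, Neat1, Xist, Kcnq1ot1 and Meg3 the IgG level was above both pull-downs, as were reads outside genes, and their part in the difference between the pull-downs was not tested.

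The control pull-down lay on a particular side for many genes. Among the 1149 genes at least 2-fold higher in IMP1 IP, the IgG mean lay between both pull-downs for 63.3%, above both for 35.9% and below both for 0.783%. Among the 929 genes at least 2-fold lower, it lay between for 93%, above both for 2.37% and below both for 4.63%. By distance in CPM, not in log2, it was closer to IMP1 IP than to IMP2 IP for 66.1% of the higher genes and for 83.9% of the lower genes. With this measure a level midway in log2 counts as closer to the lower pull-down. That raises the share for the lower genes and reduces that for the higher genes. On the CPM scale the IMP2 IP mean was thus more often the farther from the IgG mean. Distance in log2 was not examined.

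Gene span, the length of the locus with its introns, moved with the contrast. Over 11877 protein-coding genes with a RefSeq span, Spearman's rho between span and log2 fold change was 0.416, a description across genes that are not independent and share the same 6 libraries. Below 5 kb, 13.6% of 1252 genes were higher and 63.3% lower, and the median log2 fold change was -0.54. From 20 to 50 kb the shares were 37.9% and 36.7%, with a median near 0. At 200 kb or more, 61.6% of 633 genes were higher and 15.5% lower, and the median log2 fold change was 0.47. The share of genes higher in IMP1 IP grew over each of the 7 span classes.

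**Figure D5:**
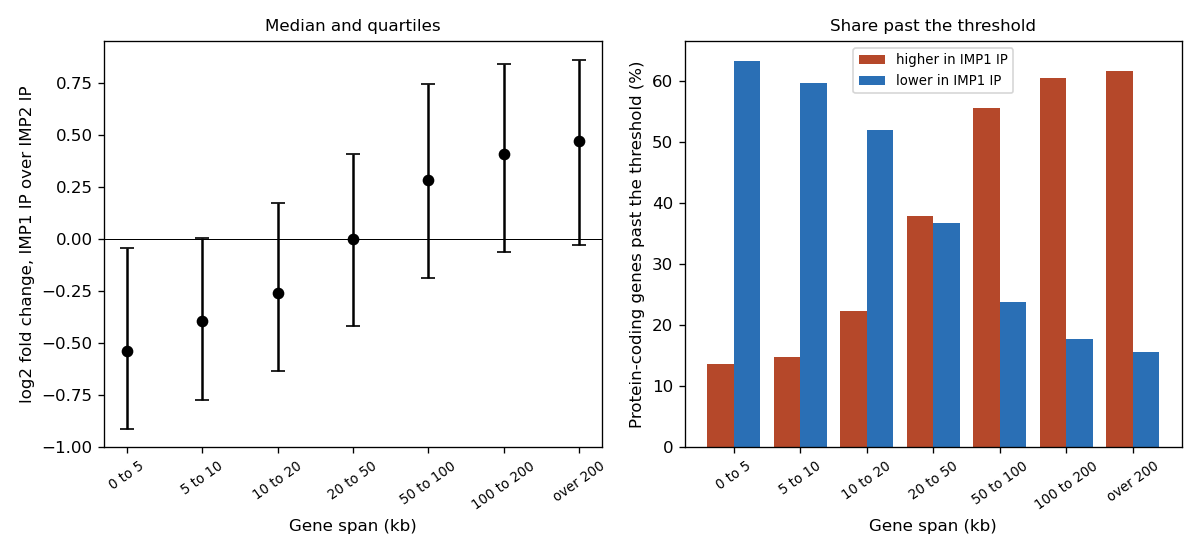
Left, median log2 fold change of IMP1 IP over IMP2 IP with quartiles (y axis) by gene span (x axis, kb) for 11877 protein-coding genes. Right, the share of genes in each span class (y axis, %) that was higher (red) or lower (blue) in IMP1 IP. Medians run from -0.54 below 5 kb to 0.47 at 200 kb or more.

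Against genes of like span, lists departed in their median log2 fold change in some span classes and lay close in others. The lists were chosen with earlier results of these data known. Histone genes lay below 5 kb, where 43 members had a median of 1.24, against -0.54 for protein-coding genes of that span. The limit of the filter given above holds for these members. Mitochondrial ribosomal genes of 5 to 10 kb had a median of -0.80 over 26 members, against -0.39. Complex I genes of the same span had a median of -0.97 over 15 members. Collagen genes of 20 to 50 kb had a median of 0.87 over 10 members, against a median near 0. Giant scaffold genes of 200 kb or more had a median of 1.74 over 11 members, against 0.47. Close to their span class were translation factors of 10 to 20 kb and mitochondrial import genes of that span, both at -0.27 against -0.26. So were proteasome genes of 10 to 20 kb at -0.25, and actin cytoskeleton genes of 50 to 100 kb at 0.26 against 0.28. Some other classes of the import, proteasome and actin lists departed. Import genes of 5 to 10 kb had a median of -1.36, against -0.39. Proteasome genes of 20 to 50 kb had -0.82, against a median near 0, and actin genes of 10 to 20 kb had -0.83, against -0.26. Within lists the relation of span and fold varied, with rho of 0.688 over 32 IGF and insulin genes, 0.665 over 38 matrix glycoproteins and 0.657 over 28 nuclear pore genes, but 0.0425 over 75 cytosolic ribosomal protein genes and 0.0271 over 32 proteasome genes. Span is no measure of the length of the spliced message, which was not used here, and the part of message length in these differences was not tested.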

How the data were processed

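The deposited values were raw counts of reads for each Ensembl gene and library, and the authors used STAR, HTSeq and the build mm10, per the submitters' processing notes, without versions or settings. Libraries were made with a TruSeq kit, per the labels' protocols. No source used here states how strand was treated in counting, so overlapping and antisense genes are uncertain. Each file holds 43629 genes and, at its end, 5 tallies, which were left out of library sizes.

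The members, gene lists, tests and named genes were chosen with earlier results of these data known. In R 4.3.3, edgeR 4.0.16 fitted the 3 IMP1 IP and 3 IMP2 IP libraries with TMM scaling, its default expression filter by group, and no covariate. The quasi-likelihood test was 2-sided, with Benjamini-Hochberg adjustment over 12771 genes, and standard errors were derived from the fold change and F. The common biological coefficient of variation was 4.49%. IgG IP libraries were placed on the same scale for values and were not tested. A floor of 3 counts, the most that a count of 0 allows, came to 0.1379 to 0.1909 CPM in these 6 libraries before scaling, and covers counting error only. Symbols, biotypes, positions and spans came from RefSeq tables of GRCm38.p6, in which 12431 of the genes tested had an entry.

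Named genes are the IMP family, the 15 genes at each end of the fold changes among calls at least 2-fold apart, without overlap and with an average log2 CPM of at least 3, the 6 most abundant on each side, and leading members of each list with up to 2 that went the other way. Predicted genes and pseudogenes were passed over, and a few genes under this rule are not reported here. Members of the ligand, partner, m6A and non-coding lists, the surface genes, further members such as Mlst8, Npc1, Tubb5, Actg1, Cox7c and Ccnd1, and the miRNA genes were named beyond the rule, or with their values known. Only the main edgeR fit was tested on simulated counts, with few genes changed and as many up as down. Scaling under a wide difference between the groups was not tested by them. Alternatives were DESeq2 1.42.0 (its test, or its size factors in edgeR), limma 3.58.1 voom, scaling by upper quartile or by totals alone, no filter, 10 CPM in 3 libraries, the IgG IP libraries added, a threshold of 0.01, a replicate block, and leaving out 1 library at a time.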

Additional observations from a re-analysis of the deposited data

How the results depend on the processing

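The number of genes called stayed within 1.5 times of 9569 under the alternatives run, with 8748 by DESeq2's Wald test, 9555 by limma voom, 10066 with no filter on low counts and 10053 with the IgG IP libraries added. Total count scaling moved the split to 2671 higher and 7436 lower, with 454 and 2491 at least 2-fold apart. Of the genes called with both TMM and total count scaling, 412 had opposite signs. Genes not called in both are left out of that number. A filter of 10 CPM in 3 libraries, which tests 8714 genes, left 1301 at least 2-fold apart, 701 higher and 600 lower, and no filter on low counts gave 1447 at least 2-fold lower. With each library left out in turn, 9074 to 9812 genes were called, 4441 to 4778 higher and 4609 to 5034 lower, and 2110 to 2268 were at least 2-fold apart, 1183 to 1257 higher and 904 to 1011 lower. The cause of these shifts was not tested beyond the number of genes and libraries each setting changes.

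With the replicate number as a block, 9804 genes were called, 4741 higher and 5063 lower. Same-numbered libraries deviated from their group means with correlations of 0.379, 0.00384 and 0.334. Differently numbered libraries had correlations of -0.39 to 0.158, and IMP1 IP replicate 2 was closest to IMP2 IP replicate 3 (0.0901). Replicates 1 and 3 thus went with their own number, and replicate 2 did not. The labels do not pair the libraries, so the main fit used no pairs, and a shared effect of replicate number was not tested. Of 243 named genes, the call changed in Hmga2 and Igf2bp3 and in no other that was tested under these settings, where the 10 CPM filter tested 233 of them, 242 were tested without IMP2 IP replicate 3, and the threshold of 0.01 was not examined gene by gene. Spearman's rank correlation of span and log2 fold change was 0.51 with the 10 CPM filter and 0.4 to 0.427 with a library left out. The planned description by protein length was not run, and gene span, chosen after seeing the data, took its place.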
